A study of Chlamydomonas reinhardtii with 9 samples.

Results

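The genes described here carry no gene symbol in the deposited table and had a short-lived early rise in RNA after iron was withdrawn. They were 122 of 17301 transcripts, and 122 of the 9735 without a symbol whose mean was at least 1 RPKM (a read count divided by transcript length and by library size), or 1.25%. Each had, on the scale of log2(RPKM + 1), a level at 0.5, 1 or 2 h at least 1.5 above 0 h, and a level at 12 h no more than 0.5 above 0 h. Values at 0, 0.5, 1, 2 and 12 h therefore chose the genes and are given as a description without a test. The minimum mean was taken over all 9 times, and 125 genes without a symbol met the other limits when it was dropped. Those other limits did not use the values at 4, 8, 24 and 48 h. They did require every gene to lose at least 1 log2 unit between its early peak and 12 h, so the change from 4 to 8 h lies within a descent that the choice largely set and is given as a description. The change from 8 to 24 h starts within that descent and spans 12 h, so its low start is tied to the choice. Only the change from 24 to 48 h falls after it.

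All samples came from strain CC-4532 (2137) of Chlamydomonas reinhardtii, a unicellular green alga. Cells were grown in continuous light in acetate-containing TAP medium to mid-logarithmic phase, washed 2 times without Fe-EDTA, and moved to fresh TAP that also had none, so all groups share the wash and the lack of added iron. They are labelled by the time since then, which ran from 0 to 48 h. RNA was sequenced at these 9 times, with 2 columns of RPKM for each, which the series text describes as biological duplicates. Pairs of values below are duplicates 1 and 2, in that order, of the samples taken at the time named. The samples used here hold no culture with iron, so washing, transfer, culture age and lack of iron cannot be told apart. The libraries held 13.2 to 33.4 M counted reads, and duplicates of the 122 genes differed at the median by 0.18 to 0.30 on the log2 scale, depending on the time. A change in RNA per cell and a change in the share of cells with that RNA cannot be told apart in bulk samples, and the p-values cover the spread between duplicate columns alone.

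As background, cells of this alga grow in size before they enter rounds of DNA replication and division, in which the plastid divides too. Chlorophyll synthesis draws on the tetrapyrrole pathway and on geranylgeranyl reductase, which supplies the tail of the molecule. Many genes of this alga have been predicted from the genome alone. Here 108 of the 122 had neither a short definition nor a description, 14 had one, and 8 of these named a function that fell in a keyword class. The share with any annotation was 11.5%, beside 10.1% over all 9735 expressed genes without a symbol, so most genes are given by locus only.

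The early peak came late in the window for most of the genes. Of the 3 early times, 2 h held the highest level in 93 genes, 1 h in 12 and 0.5 h in 17. Over all 9 times the maximum was that of 2 h for 86 genes, of 0.5 h for 17 and of 1 h for 10, while 8 were highest in the 24 h samples and 1 in those of 8 h. For 61 genes the minimum was the 48 h level, for 25 that of 12 h, for 18 that of 8 h and for 11 that of 0 h. The median log2 difference from 0 h was 1.09 after 0.5 h, 1.29 after 1 h and 1.65 after 2 h. It was 1.12 after 4 h, -0.15 after 8 h, -0.25 after 12 h, 1.09 after 24 h and -0.32 after 48 h. The 9735 expressed genes without a symbol had medians of 0.05 after 2 h, -0.11 after 12 h, 0.33 after 24 h and 0.25 after 48 h. The median course of the set thus had an early maximum, which the choice of genes fixed, and another at 24 h. The choice used the 24 h values only through the minimum mean, but its limit at 12 h bounded the low point before them. A smaller rise from 12 to 24 h was also present in the 9735 genes.

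**Figure D1:**
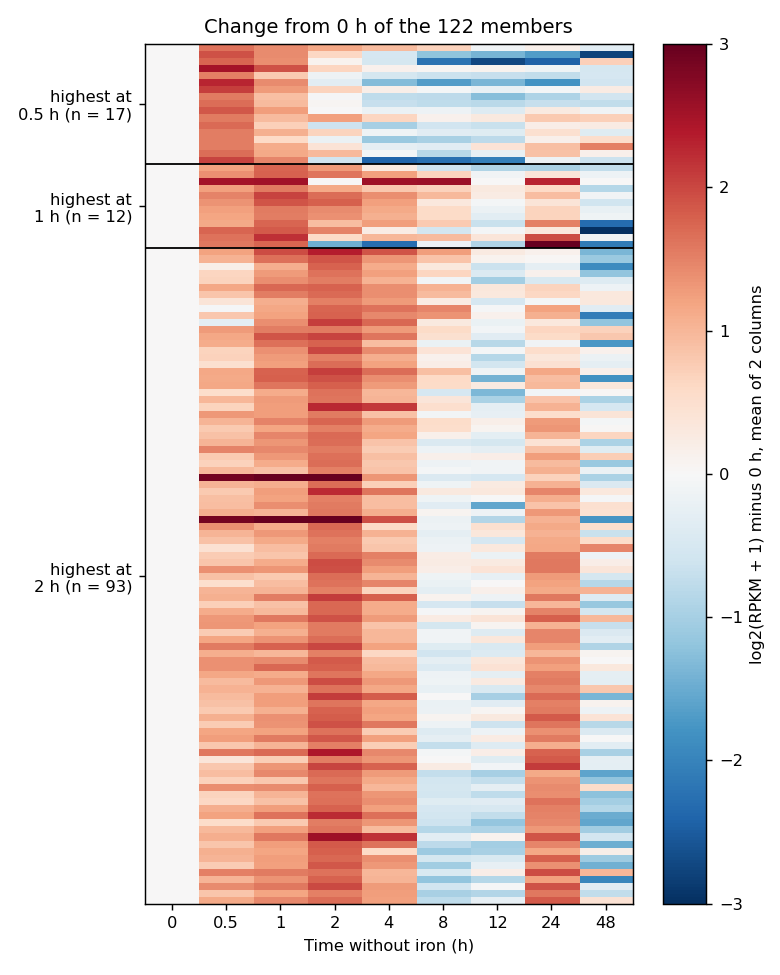
Each row is 1 of the 122 genes and each column a time. Color gives log2(RPKM + 1) minus the level at 0 h (mean of 2 columns), with rows grouped by the time of the early peak and ordered by the change from 8 to 24 h. The 93 genes highest at 2 h were mostly near their starting level at 8 and 12 h and above it at 24 h.

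Between 4 and 8 h, within the descent set by the choice, most of the genes fell, and nothing is read from their number. A gene was called where limma-trend gave a p below 0.05 after Benjamini-Hochberg adjustment and the fitted change was 2-fold or more. By this, 68 of 122 were lower after 8 h, 1 was higher and 53 were not called. Among all 13077 genes tested, 4.63% were called lower and 1.67% higher. After each column was centred on its median, 60 were lower and 1 higher, beside 3.9% and 1.97% of all genes. The median change was -1.04, against 0.00 over all genes tested, and 113 of the 122 were lower at 8 h than at 4 h in both duplicates. Of the 68 genes, 67 belonged to the 93 with a 2 h peak, which had a median of -1.26. Of the 17 genes with a 0.5 h peak 1 was lower, with a median of -0.11 for the group, and at 4 h this group had already stood at a median of -0.50 from 0 h.

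The steepest falls in that interval were those of 4 genes. Cre13.g563050, also of the 10 largest early rises (2.54), had 6.27 and 6.45 RPKM at the start and 40.2 and 43.4 by 2 h. It had 32.9 and 32.1 RPKM in duplicates 1 and 2 by 4 h and 4.47 and 5.27 by 8 h, a log2 difference of -2.51 (SE 0.22, n = 2), then 22.6 and 29.4 by 24 h (2.19) and 5.01 and 3.07 by 48 h (-2.44). Cre05.g237150, annotated as a hypothetical protein, had 23.6 and 17.3 by 4 h and 3.45 and 2.66 by 8 h (-2.39). In both genes the columns of 4 h and those of 8 h did not overlap. Cre16.g667850 and Cre09.g412400, neither with a description, changed by -2.33 and -2.22.

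From 8 to 24 h most of the genes rose again, while the median of the whole table was also higher. The interval starts within the descent set by the choice, whose part in the rise was not tested. Of 122 genes, 70 were called higher, 1 lower and 51 were not called, beside 14% higher and 2.17% lower among the 13077 tested. The median change was 1.20 in the set and 0.42 over all genes tested. After centring, the set had 45 higher and 4 lower, with a median of 0.70 against -0.08 over all genes, and the background was then 4.05% higher and 5.81% lower. By peak time, 65 of the 93 genes highest at 2 h were called higher (42 after centring), 4 of the 17 highest at 0.5 h (2 after centring) and 1 of the 12 highest at 1 h. Both duplicates were higher at 24 than at 8 h in 93 of the 122. By the sign of the fitted change alone, 99 of the 122 were higher, beside 7927 of 9575 other genes without a symbol. A rise of any size was thus about as common in the others as deposited. After centring the numbers were 82 and 4288.

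Cre02.g080600 had the largest rise in this interval and an unusual course. It had 21.5 and 17.3 RPKM at the start, 62.8 and 58 by 0.5 h, 62.3 and 72.5 by 1 h, and 5.16 and 7.66 by 2 h. It then had 3.86 and 2.51 by 4 h, 23.4 and 10.7 by 8 h, 8.99 and 10.8 by 12 h, 202 and 144 by 24 h, and 4.59 and 2.97 by 48 h. The columns of 24 h exceeded those of every other time, and the lowest values were those of 4 and 48 h. It was the single gene of the set called higher from 4 to 8 h (log2 difference 2.03, SE 0.28, n = 2, adjusted p = 8.5e-05 by limma-trend), and it rose by 3.34 from 8 to 24 h and fell by 5.18 from 24 to 48 h.

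The next largest rises to 24 h were alike in course. Cre06.g281750 went from 2.21 and 1.59 RPKM by 8 h to 17.5 and 15.8 by 24 h (log2 difference 2.61, SE 0.19, n = 2, adjusted p = 1.9e-07 by limma-trend). Its 24 h values slightly exceeded those of 2 h, 15.7 and 13.8. Cre06.g251750, a protein of unknown function, and Cre10.g441250 rose by 2.54 and 2.49.

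From 24 to 48 h most of the genes fell once more. Of 122, 74 were lower, 2 higher and 46 not called, beside 16.1% lower and 7.43% higher among all 13077 tested, and the median was -1.36 against -0.15. After centring, 68 were lower and 2 higher, beside 12.5% and 9.98% of all genes. Of the 68 genes lower from 4 to 8 h, 52 were also lower from 24 to 48 h (76.5% of the first list and 70.3% of the second). Among all genes tested, 295 were lower in both, which is 48.8% of the 605 lower in the first interval and 14% of the 2101 lower in the second. The comparisons share no column, but the first lies within the descent set by the choice. By peak time, 67 of the 93 genes highest at 2 h and 6 of the 12 highest at 1 h were lower, and 1 of the 17 highest at 0.5 h. After Cre02.g080600 the deepest fall was that of Cre08.g370900, from 14.5 and 23.9 RPKM to 0.371 and 0.486 (log2 difference -3.78, SE 0.14, n = 2, adjusted p = 3e-10 by limma-trend). Cre09.g412400 changed by -3.27.

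**Figure D2:**
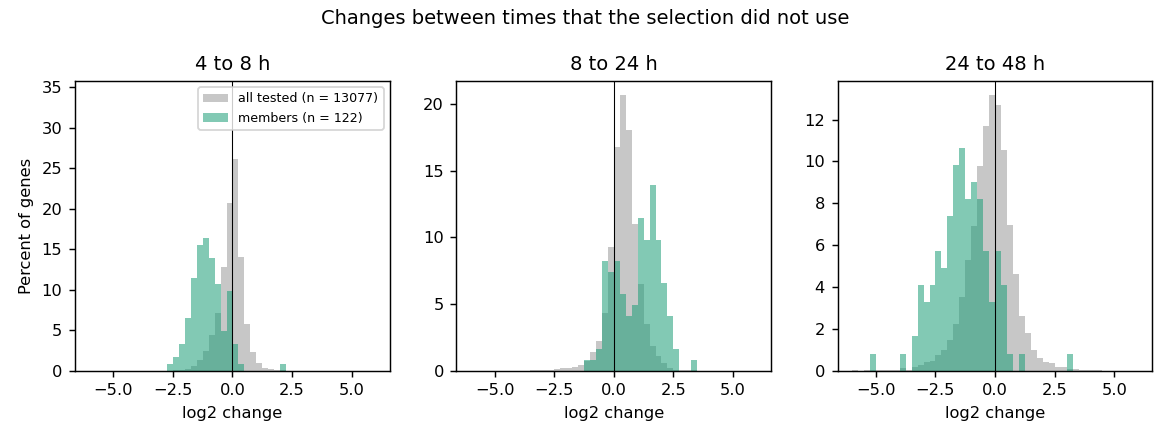
Histograms of the log2 change between times that entered the selection only through the minimum mean, as percent of genes. All 13077 genes tested are in grey and the 122 selected genes in green, with values beyond the axis drawn in the end bins. The interval of 4 to 8 h lies within the descent that the selection set, and that of 8 to 24 h starts within it. The selected genes lie to the left of all genes from 4 to 8 h and 24 to 48 h (medians -1.04 and -1.36) and to the right from 8 to 24 h (1.20).

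The 17 genes highest at 0.5 h kept another course. Their median change from 0 h was 1.69 by 0.5 h, 1.14 by 1 h and 0.11 by 2 h, then -0.63 by 8 h, -0.67 by 12 h and -0.05 by 24 h. The start value of these genes differed between duplicates: all 17 were higher at 0 h in duplicate 2, by 0.61 at the median, where 57.8% of expressed genes without a symbol were higher in that duplicate, with a median difference of 0.07. Their median early rise was 2.21 in duplicate 1 and 1.34 in duplicate 2. Its part in the choice of the 17 genes was not tested. In the 93 genes highest at 2 h the early rise was 1.67 in duplicate 1 and 1.76 in duplicate 2.

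**Figure D3:**
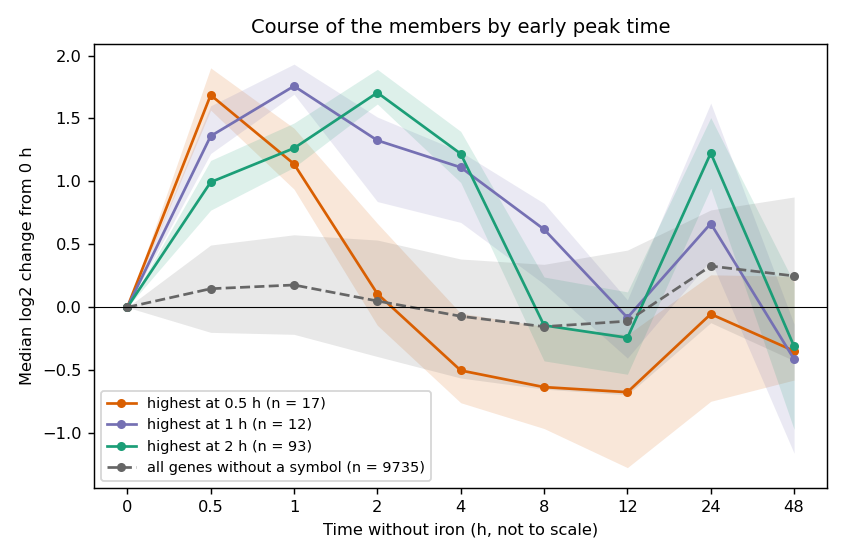
Median log2 change from 0 h at each time (lines, with the interquartile range shaded) for the genes grouped by early peak time, and for all 9735 expressed genes without a symbol (dashed). The group highest at 2 h reached 1.70 there and 1.23 at 24 h, while the group highest at 0.5 h was near 0 at 24 h.

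Cre06.g306400 had the largest early difference of the 0.5 h group, 2.49 on the log2 scale. It had 6.49 and 10.4 RPKM at the start, 60.4 and 43.7 by 0.5 h, 34 and 35 by 1 h, and 11.6 and 15.8 by 2 h. From 4 to 24 h its 8 columns lay between 6.37 and 12.2, and at 48 h it had 5.52 and 5.58. The columns of 0.5 and 1 h overlapped with those of no other time, and none of the tested intervals gave a call. Cre11.g468050 had 16.1 and 41.7 RPKM at the start, 158 and 131 by 0.5 h, 6.60 and 15.6 by 4 h, 5.81 and 9.53 by 24 h, and 17.6 and 20.4 by 48 h. Its rise between 24 and 48 h was 1.24 (SE 0.32, n = 2, adjusted p = 0.0037 by limma-trend), but 0.98 without duplicate 1 of 48 h, 0.94 with a pseudocount of 5, and not called without the block (adjusted p = 0.054). Cre12.g554100 was the other gene higher at 48 than at 24 h, at 25 and 12.4 RPKM against 1.79 and 0.651 (3.12, SE 0.35, limma-trend adjusted p = 4e-06). It was also the gene of this group that was lower from 4 to 8 h (-1.62), a call lost without duplicate 1 of 4 h (-1.16, adjusted p = 0.051) and with a pseudocount of 5 (-0.85). Cre07.g352800, possibly related to RNA ligase per its description, had 4.27 and 15 RPKM at the start, 24.4 and 36.8 by 0.5 h and 2.56 and 8.04 by 4 h. Duplicate 2 was the higher one at every time in this gene. It is named, like the genes of few reads, the DNA methyltransferase and the neighbouring pair below, after its values were seen.

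The genes with the 2 largest early rises had no description. Cre01.g036950 stood at 7.29 and 5.78 RPKM at the start, 73.6 and 34.8 by 0.5 h, 101 and 59.5 by 1 h, and 107 and 63.1 by 2 h. It had 29 and 26.4 by 4 h, 5.94 and 5.37 by 8 h, 2.75 and 3.43 by 12 h, 14.7 and 14.6 by 24 h, and 1.23 and 1.20 by 48 h. The duplicates disagreed most at 0.5, 1 and 2 h, where duplicate 1 was the higher one, and agreed closely afterwards. Its early rise was 3.51 on the log2 scale. It fell by 2.11 from 4 to 8 h, rose by 1.24 to 24 h and fell by 2.82 to 48 h (SE 0.25, n = 2, adjusted p = 5.1e-07 by limma-trend for the last). The rise was under 2-fold after centring (0.74) and with a pseudocount of 5 RPKM in place of 1 (0.88).

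Cre12.g555500 came next with an early rise of 3.23, from 2.16 and 1.52 RPKM at the start to 33.6 and 17.9 by 2 h. It had 6.29 and 5.83 by 4 h, 0.973 and 1.26 by 8 h, 3.93 and 3.30 by 24 h, and 0.472 and 0.485 by 48 h. As in Cre01.g036950, duplicate 1 was the higher one at the early peak. Its change from 4 to 8 h was -1.74 and that from 24 to 48 h -1.64. Its rise of 1.12 from 8 to 24 h was lost after centring (0.62) and without duplicate 1 of 8 h (0.80, limma-trend adjusted p = 0.070). Cre11.g482700 had an early rise of 2.43 and changed by -1.49 from 4 to 8 h, 1.83 from 8 to 24 h and -2.74 from 24 to 48 h. Cre74.g795200 had an early rise of 2.24 and changed by -2.18, 2.03 and -3.07 in the same intervals. Cre03.g204850 went from 14 and 19 reads at 0 h, or 0.613 and 0.483 RPKM, to 8.04 and 4.83 RPKM by 2 h. It fell by 1.64 from 4 to 8 h and by 1.55 from 24 to 48 h, while its change of 0.56 from 8 to 24 h was under 2-fold. Several calls of these genes were lost with a pseudocount of 5, which shrinks changes at low levels. Cre12.g555500 then changed by -0.85, 0.49 and -0.65 in the 3 intervals, Cre03.g204850 by -0.80 in the first and -0.50 in the last, and Cre11.g482700 by -0.82 in the first.

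A few of the genes rest on very few reads. Cre01.g061400 had an early difference of 2.52, among the 10 largest, and was listed at 0 in all columns of duplicate 1. In duplicate 2 it had 1 read in each column of 0.5, 1 and 24 h and 2 in those of 4 and 8 h, at a recovered length of 8 bases, which gave 7.69 to 9.86 RPKM. Cre10.g442100 had a recovered length of 25 bases and 1 to 8 reads in any column, so its call as lower from 24 to 48 h (-1.87) rests on 3 and 6 reads against 1 and 1. Cre11.g483288 had 2 and 13 reads at 0 h. Of the 122 genes, 11 had under 20 reads in a column of 0 h, and the median was 131 reads. The selection also depended on averaging: 104 genes met it in duplicate 1 alone, 92 in duplicate 2 alone and 75 in both, although 120 were at least 2-fold higher early in each duplicate.

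Among the genes with a stated function, the most strongly expressed were enzymes of small-molecule metabolism, but not all enzymes of that class were strongly expressed. Cre01.g050950 encodes geranylgeranyl reductase, which makes the phytyl chain of chlorophyll and tocopherol. It had 125 and 131 RPKM at the start, 313 and 279 by 0.5 h, 519 and 479 by 1 h, and 664 and 650 by 2 h. It had 465 and 485 by 4 h, 324 and 286 by 8 h, 173 and 134 by 12 h, 135 and 144 by 24 h, and 55 and 42.5 by 48 h. The columns of 0, 0.5, 1 and 2 h were apart from each other. Those of 12 and 24 h overlapped, as did those of 1 and 4 h and those of 0.5 and 8 h. It was the one gene of the set lower from 8 to 24 h (log2 difference -1.12, SE 0.12, n = 2, adjusted p = 3.3e-06 by limma-trend), and it fell by 1.51 to 48 h.

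Cre10.g433600 is a putative methylenetetrahydrofolate reductase, which makes the methyl donor for methionine synthesis. It had 39.2 and 45.4 RPKM at the start, 173 and 119 by 2 h, 84.2 and 78.1 by 4 h, 38.4 and 34.4 by 8 h, 41 and 37.6 by 24 h, and 12.3 and 11.6 by 48 h. It fell by 1.13 from 4 to 8 h and by 1.64 from 24 to 48 h (SE 0.16, n = 2, adjusted p = 1.2e-06 by limma-trend), and its change of 0.11 from 8 to 24 h was within the spread. Cre07.g344400, a 2-hydroxyacid dehydrogenase of a family that interconverts oxo acids and hydroxy acids, had 78.6 and 132 RPKM at the start, 461 and 254 by 0.5 h and 416 and 346 by 1 h. It stood at 124 and 141 by 24 h and 13.6 and 9.72 by 48 h, a fall of 3.41 (SE 0.32). Cre17.g699900, a probable aldo/keto reductase, had 2.18 and 2.50 RPKM at the start and 11.6 and 13.8 by 1 h, and fell by 1.03 from 24 to 48 h (limma-trend adjusted p = 1.3e-05). That fall was under 2-fold after centring (-0.88), with a pseudocount of 5 (-0.54) and when duplicate 2 of 24 h (-0.93) or the first 48 h column (-0.97) was left out.

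Like Cre17.g699900, the other genes with a stated function were weakly expressed, and they are given singly. Cre10.g461750, a putative DNMT1-type enzyme, a kind that copies cytosine methylation onto new DNA strands, had 0.825 and 0.433 RPKM at the start, 4.54 and 3.90 by 2 h, 0.526 and 0.509 by 8 h, 3.72 and 3.31 by 24 h, and 0.430 and 0.197 by 48 h. It fell by 1.08 from 4 to 8 h, rose by 1.57 to 24 h (SE 0.13, n = 2, adjusted p = 6.3e-07 by limma-trend) and fell by 1.79 to 48 h. The changes of this gene are not given under other settings, and a pseudocount of 5 shrinks changes at such low levels. The columns of 2 and 24 h stood above all those of 0, 8 and 48 h. Cre16.g647600, of the SNF2 family of chromatin remodeling ATPases, changed by -1.05, 1.35 and -1.20 in these intervals. The first of these was under 2-fold after centring (-0.997) and without duplicate 1 of 4 h (-0.92), the second after centring (0.85) and the third without duplicate 1 of 24 h (-0.95). Cre12.g488500 is similar to ARC6, which in Arabidopsis anchors the plastid division ring. It had 2.06 and 1.82 RPKM at the start, 9.60 and 7.79 by 2 h, 0.969 and 1.19 by 8 h, 5.72 and 4.01 by 24 h and 0.536 and 0.138 by 48 h. Its changes were -1.61, 1.48 (0.98 after centring) and -2.13. With a pseudocount of 5 they were -0.77, 0.69 and -0.88, all under 2-fold, and those of the SNF2 gene were -0.44, 0.60 and -0.55. Cre06.g306800, whose description names similarity to a protein tyrosine kinase and to an endopeptidase, had 7.65 and 9.02 RPKM by 2 h and rose by 1.08 from 8 to 24 h, which was under 2-fold after centring (0.58), with a pseudocount of 5 (0.59), without duplicate 2 of 8 h (0.94) and without duplicate 1 of 24 h (0.94).

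**Figure D4:**
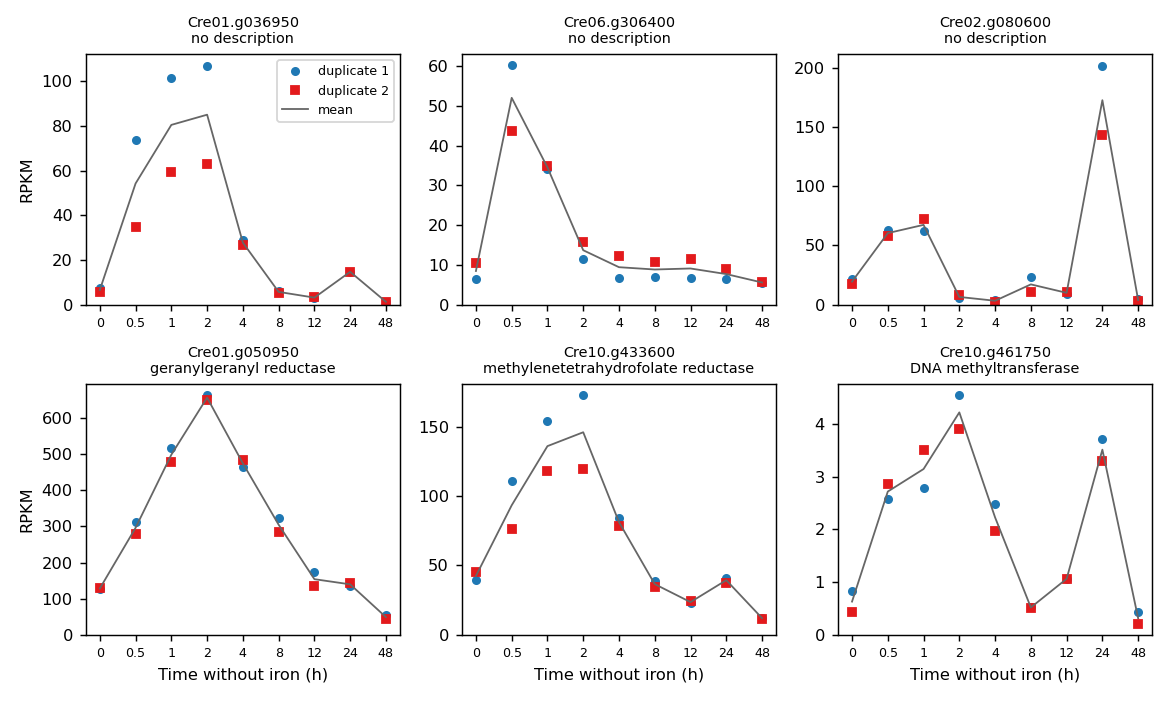
RPKM of 6 genes in each column (circles, duplicate 1; squares, duplicate 2) with the mean of both as a line, by hours without iron on an axis not to scale. Cre02.g080600 and the DNA methyltransferase gene were high again at 24 h, and the geranylgeranyl reductase gene was not.

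To place genes of unknown function, each course over 9 times was compared with those of 1380 genes that carry a symbol, had a mean of at least 1 RPKM and varied over time by an SD of at least 0.5. The measure was Pearson's r of the 9 mean log2 levels, which all come from the same libraries and include the times of the selection, so it is a description. The closest gene had an r of at least 0.95 for 109 of the 122 genes (89.3%). The same held for 82.3% of 3474 other genes without a symbol that varied over time by an SD of at least 0.5, so a close match was also common among other genes. The median course of the genes highest at 2 h was closest to ORC4 (r = 0.989), of the origin recognition complex, then to SMC4 (0.986), a chromosome condensation protein, and MCM4 (0.983), a subunit of the replicative helicase. Genes close to the 0.5 h group included the amino acid transporter gene AOT4 (0.962) and the sulfate transporter gene SLT2 (0.952). For the 1 h group it was the early light-inducible gene ELI1 (0.968) and the beta-carotene ketolase gene BKT (0.938). The genes most often the closest one were SMC4 and TRZ1, an RNase Z, for 5 genes each.

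Among single genes, Cre74.g795200 was closest to CDKB1 (r = 0.996), a cyclin-dependent kinase, as was the ARC6-like gene (0.994). The DNA methyltransferase gene was closest to POLA2 (0.987), of DNA polymerase alpha. The geranylgeranyl reductase gene was closest to ALB3.1 (0.991), which inserts antenna proteins into thylakoids, then to POR (0.985), protochlorophyllide reductase, and CHLD (0.984), a subunit of magnesium chelatase. The methylenetetrahydrofolate reductase gene was closest to METE (0.989), the cobalamin-independent methionine synthase. For Cre02.g080600 the closest gene was CDC48, at an r of 0.838.

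The same thresholds were met by 65 of 2977 expressed genes with a symbol, or 2.18%. They included MCM2, MCM3, MCM4, MCM6 and MCM7 of the replicative helicase, FTSZ1 and FTSZ2 of the plastid division ring, and GSA, UROD1, CHLD, CHLG and GUN4 of chlorophyll synthesis. From 4 to 8 h 33 of the 65 were lower (50.8%, beside 4.63% of all genes tested). From 8 to 24 h 26 were higher and 4 lower (40% and 6.15%, beside 14% and 2.17%). After centring these were 17 and 13, beside 4.05% and 5.81%. Their median in that interval was 0.41, against 0.42 over all genes tested, and -0.09 against -0.08 after centring. From 24 to 48 h 41 were lower and 1 higher (63.1% and 1.54%, beside 16.1% and 7.43%). The thresholds set a descent to 12 h in these genes too, so 4 to 8 h lies within it and 8 to 24 h starts there. CDKB1 had a mean of 69.6 RPKM by 2 h, 9.03 by 8 h, 48.6 by 24 h and 3.79 by 48 h. CHLD had 123 by 2 h, 49.3 by 8 h, 28.5 by 24 h and 12.8 by 48 h.

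Genes with a symbol in the 4 keyword classes that hold annotated genes of the set were tested against 0 h, since the selection did not act on them. Of 1250 tested at 1 h, 133 were higher and 44 lower than at 0 h, or 10.6% and 3.52%, beside 8.38% and 4.95% of all genes. After centring they were 81 and 63, beside 5.04% and 7.49%. At 12 h 122 were higher and 259 lower, beside 10.1% and 18% of all genes, and 171 and 205 after centring, beside 13.5% and 14.3%. The pooled shares hide unlike classes: at 1 h 15% of the metabolism and redox class were higher, 9.73% of transcription and chromatin, 6.54% of translation and folding and 1.9% of kinases and phosphatases. The class of folding and translation held DNJ12, CLPB1 and HSP22B, chaperone genes, at -2.89, -2.82 and -2.48 at 1 h, and FKB16-9, a prolyl isomerase, at 2.14 (limma-trend adjusted p = 6e-08). In the class of metabolism and redox, the ferric reductase gene FRE1 and the carbonic anhydrase gene CAH1 stood at 4.56 and 3.49, and PFR1, pyruvate-ferredoxin oxidoreductase, and FDX5, a ferredoxin, at -3.43 and -3.35. The call of CAH1 was lost when duplicate 1 of 0 h (adjusted p = 0.152) or the second 1 h column (0.111) was left out.

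The genes were spread over the genome and somewhat shorter than expressed genes without a symbol as a whole. Their median recovered transcript length was 1941 bases (quartiles 1356 and 2550), beside 2249 (1468 and 3394) for expressed genes without a symbol. The median of their mean levels was 6.16 RPKM, beside 5.21, and 40 had a mean of at least 10 RPKM. Locus numbers placed 14 of them on chromosome 16 (2.18% of its expressed genes without a symbol) and 12 each on chromosomes 3 and 6 (1.56% and 1.71%). Chromosome 11 held 6 (2.84%) and chromosome 2 held 4 (0.431%). In RefSeq's gene order 93 could be placed, and 1 pair were neighbours, Cre16.g656650 and Cre16.g656700. The former had 13.1 and 13.4 RPKM by 24 h against 17.2 and 15.8 by 8 h, and the latter 10.7 and 7.58 against 1.85 and 1.56. The columns of 24 h thus lay below those of 8 h in the former and above them in the latter. The change from 8 to 24 h was -0.30 in the former and 1.89 in the latter.

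At the limits of the selection the genes merged with those left out. Cre15.g635050 and Cre12.g512500 entered with early rises of 1.502 and 1.503, and Cre02.g098300 and Cre13.g597900 were left out at 1.496 and 1.493. At the 12 h limit Cre01.g030150 and Cre08.g378100 entered at 0.49 and 0.43 above 0 h, and Cre16.g656150 and Cre05.g238935 stayed out at 0.506 and 0.508. At the limit on the mean, Cre14.g632100 and Cre10.g428550 entered with 1.34 and 1.36 RPKM, and Cre06.g305100 and Cre01.g047050 stayed out with 0.969 and 0.819. A further 172 genes without a symbol met the early limit but were more than 0.5 above 0 h at 12 h.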

How the data were processed

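Values are RPKM as the authors deposited them, 18 columns, 2 per time, with 0 columns left unused. The header does not state this unit, which the values themselves showed. Per the submitters' processing notes Bowtie was the aligner. Its version, the build and the counting tool were not given in the sources used here, so the division of reads among near-identical or overlapping genes is unknown.

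Library sizes, lengths and reads were solved (Python 3.11.15 with pandas 2.3.3 and numpy 2.4.6) as the numbers that make values whole within 0.05 reads. This worked for 15960 transcripts (92.2%), a share that follows from accepting only such lengths. A value of 0 allows up to 3 reads at 95% confidence, or 0.0386 to 0.0978 RPKM at the median length of 2321 bases. This covers counting error only.

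All 13077 genes with at least 1 RPKM at 3 or more times, all 122 selected genes among them, were fitted with limma-trend (limma 3.58.1, R 4.3.3) on log2(RPKM + 1), which understates changes of weak genes. Time was a factor and duplicate number a block, leaving 8 residual degrees of freedom. P-values were adjusted by Benjamini-Hochberg over all genes, and a call needs an adjusted p below 0.05 and 2-fold. Duplicate numbers come from the column names. Differences between duplicates correlated between times at 0.31 to 0.73 over 36 pairs of times. The fit was also run on simulated data with independent noise in each column, which lacks this correlation, so nothing is concluded from it.

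The genes, classes and tests were chosen with earlier results of these data known. Named genes were the 10 largest early rises, the 4 best expressed of each class, the 4 largest called changes per interval and direction, and 2 on each side of every limit. For genes with a symbol they were the 4 largest called changes at 1 h per class. The rule allowed 2 genes without a description; the others of that kind follow the same rankings but were named after their values were seen. The 11 classes rest on words in the annotation and hold misfits. The 8 genes with a function fell in 4 of them. Alternatives were other pseudocounts, filters, centring, no block, the compared times alone, other limits and leaving out each column. RefSeq locus tags gave neighbours only, matched through the locus number. One gene compared by course is not reported here.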

Additional observations from a re-analysis of the deposited data

How the results depend on the processing

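The number of genes selected moved most with the limits. It was 558 and 22 with an early rise of 1 and 2, 270, 191 and 25 with a pseudocount of 0.1, 0.5 and 5 RPKM, 71 with a minimum mean of 5 RPKM, 80 after median centring and 209 in duplicate 1 alone. With a pseudocount of 5, 18 of the 122 were lower from 4 to 8 h, 27 higher from 8 to 24 h, and 37 lower and 1 higher from 24 to 48 h. Shares over all genes are given only for the main fit and after centring. Counts at other settings thus do not compare the set with all genes. Testing only genes of at least 5 RPKM left 45 lower and 46 higher in the first and second interval. That filter also took weak genes of the set out of the test, so these counts are out of fewer than 122. Centring gave 45 higher and 4 lower from 8 to 24 h, and a pseudocount of 0.1 gave 2 lower. Without the replicate block 1 gene was higher from 24 to 48 h, the same number as without duplicate 1 of 48 h, and leaving out the block moved no other count of selected genes by over 1.5 times. Among genes with a symbol, 52 and 69 were higher at 1 and 12 h with a pseudocount of 5, and 81 at 1 h after centring.

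Leaving out 1 column, with the remaining column of that time assumed to vary like the other times, gave 59 to 70 lower from 4 to 8 h with 1 higher, 68 to 69 higher from 8 to 24 h with 1 lower, and 71 to 74 lower and 1 to 2 higher from 24 to 48 h. For genes with a symbol it gave 129 to 143 higher and 44 to 48 lower at 1 h, and 125 to 134 and 249 to 272 at 12 h. Of 85 changes of single named genes, 24 lost the call under at least 1 alternative, 22 of them with a pseudocount of 5, and no sign changed in those run. Depth limits the weakest genes, of which 11 had under 20 reads in a column of 0 h.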
